A study of Mus musculus with 10 samples.

Results

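The genes examined here are those of the WAVE regulatory complex and their relative N-WASP, 10 genes among the 24972 in the gene tables, with 27 RefSeq transcripts among 42482. They were chosen by name: the WAVE proteins (Wasf1, Wasf2, Wasf3), the large scaffold subunits (Cyfip1, Cyfip2, Nckap1), the adaptor subunits (Abi1, Abi2), the small subunit Brk1, and Wasl, which encodes N-WASP. The list was prompted by Wasf2, so its difference between the genotypes is given as a description and nothing is read from its test. The 9 other genes, called partners below, were listed for what they encode, and the question was whether they follow Wasf2. All 10 genes passed the filter on low counts. Wasf2 read higher in every nKO library than in any control library. None of the 9 partners was called different between the genotypes. Wasf2, described only, was not among the genes called either. From animal to animal, only Cyfip2 varied together with Wasf2 past the 5% threshold. That call was lost without the 2 libraries farthest from the median of Wasf2.

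The RNA came from cortices of 10 C57BL/6 mice, males aged 2.5 months, 5 of genotype Atad3 nKO and 5 littermates of genotype Atad3 control, with 1 library of total RNA per animal. All were perfused with cold PBS before the cortex was taken. What nKO stands for is not spelled out in the labels, and a driver line and the deleted exons are not given in the sources used here. In bulk cortex, fewer cells of a type and less RNA per cell cannot be told apart. Libraries are called control 1 to 5 and nKO 1 to 5, numbers that only name them.

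The WAVE complex is a hetero-pentamer that holds a WAVE protein inactive until active Rac binds it. The freed end of the WAVE protein then switches on the Arp2/3 complex, which starts a new actin filament as a branch on an existing one. In neurons such branched actin shapes growth cones, dendritic spines and lamellipodia. N-WASP activates the same Arp2/3 complex but answers to Cdc42 and works outside the WAVE pentamer.

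The 10 libraries held 14812639 to 24161361 estimated counts. Atad3a, the targeted gene, went from 23.7 ± 1.87 CPM in control to 11.5 ± 1.97 CPM in nKO cortex (CPM are counts scaled by TMM to a common library total; SD, n = 5 each), and its log2 fold change was -1.04 (SE 0.12, edgeR adjusted p = 0.00634). It was 1 of 2 genes called among 14378 tested, both lower in nKO. Control 3, the deepest library, was lowest on the second principal component, and control 1 and nKO 4 were the ends of the first, which held 33.6% of the variance. The 9 cell type marker lists had no gene called and no marker at 0 in all libraries, and the range of each list's summed CPM overlapped between genotypes. Excitatory neuron markers such as Slc17a7 and Camk2a summed to 1438 to 2173 CPM in controls and 1719 to 2103 CPM in nKO, with control 3 the lowest and control 1 the highest of the 10.

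Nckap1 and Cyfip1 are each listed as several RefSeq transcripts, and the sequences that tell their 2 leading forms apart are shown here because transcript results below turn on them. They are GENCODE M21 transcript sequences on GRCm38 (mm10), matched to the RefSeq identifiers by GENCODE's own cross-reference, and capitals mark the bases of the exon that differs. The Nckap1 transcripts NM_001290745 and NM_016965 differ by an 18-base coding exon, exon 2 of 32 in the longer form, at chr2:80571213-80571230 on the minus strand.
NM_001290745: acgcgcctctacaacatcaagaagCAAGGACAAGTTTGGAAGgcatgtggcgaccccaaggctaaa
NM_016965: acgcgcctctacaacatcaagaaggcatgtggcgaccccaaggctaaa
The exon's length is a multiple of 3, so the reading frame goes on in both forms.

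In Cyfip1, NM_011370 and NM_001164662 use different coding exons at the same place, exon 16 in both, between shared neighbours. The exon of NM_011370 has 154 bases at chr7:55898238-55898391, and that of NM_001164662 has 148 bases at chr7:55897825-55897972, both on the plus strand. Each is printed with 12 bases of the exons before and after it.
NM_011370: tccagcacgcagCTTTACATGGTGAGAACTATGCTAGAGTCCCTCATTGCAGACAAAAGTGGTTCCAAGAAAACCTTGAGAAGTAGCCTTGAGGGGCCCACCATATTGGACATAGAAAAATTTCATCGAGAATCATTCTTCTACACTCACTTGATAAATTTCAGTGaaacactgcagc
NM_001164662: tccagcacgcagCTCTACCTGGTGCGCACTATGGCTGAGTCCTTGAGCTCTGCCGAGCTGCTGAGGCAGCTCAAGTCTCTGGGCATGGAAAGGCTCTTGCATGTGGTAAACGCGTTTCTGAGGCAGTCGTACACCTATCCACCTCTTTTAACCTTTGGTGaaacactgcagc
The lengths of both transcripts in the deposited tables differ by the same 6 bases.

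Per length, Nckap1, Cyfip2 and Brk1 were the most abundant members, and Wasf2 was the scarcest. TPM, a level scaled per transcript length, placed Nckap1 first at 542 ± 47.1 TPM (SD, n = 5) in control cortex. Cyfip2 followed at 320 ± 46.3 TPM (SD, n = 5) and Brk1 at 310 ± 35.5 TPM (SD, n = 5), and the control ranges of these neighbours overlapped. Abi2 stood at 189 ± 32.8 TPM (SD, n = 5) and Abi1 at 145 ± 17.3 TPM (SD, n = 5), which also overlapped. Wasl at 77.9 ± 6.31 TPM and Wasf1 at 71.0 ± 16.6 TPM (SD, n = 5 each) overlapped as well, as did Wasf3 at 44.6 ± 4.48 TPM and Cyfip1 at 43.7 ± 2.15 TPM (SD, n = 5 each). Wasf2 came last at 4.54 ± 1.18 TPM (SD, n = 5), a mean 9.62 times below that of Cyfip1 and at the 17.1 percentile of tested genes. The ranges of Nckap1 and Cyfip2, Brk1 and Abi2, Abi1 and Wasl, Wasf1 and Wasf3, and Cyfip1 and Wasf2 were separate in controls.

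The plot of CPM by library shows all 10 genes on 1 axis.

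**Figure D1:**
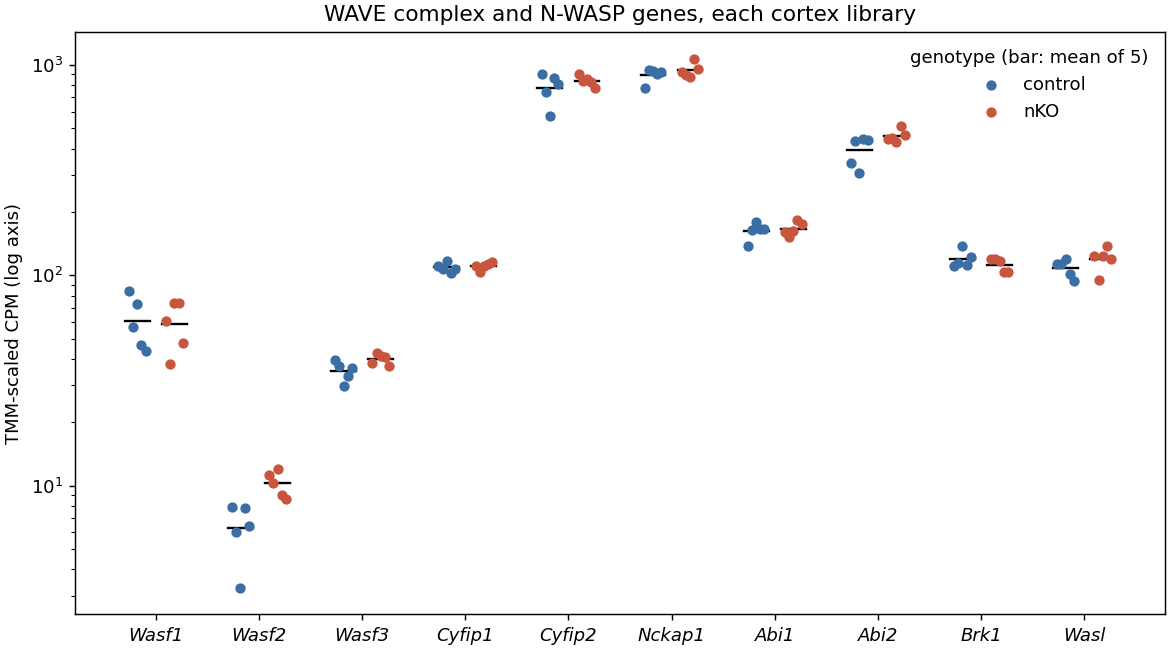
TMM-scaled CPM (log axis) of each gene in each of the 5 control and 5 nKO cortex libraries; each point is 1 library and each bar the mean of 5. Wasf2 sits lowest, with control libraries at 3.28 to 7.91 CPM and nKO libraries at 8.68 to 12.1 CPM; the control and nKO points of the other genes overlap.

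The 3 WAVE proteins carry the end of the complex that activates Arp2/3. Wasf2 (WAVE2, the form known from many cell types; NCBI gene 242687, chromosome 4, 133130531 to 133199748, RefSeq on GRCm38) read 7.91, 5.99, 3.28, 7.79 and 6.43 CPM in control 1 to 5. It read 11.3, 10.3, 12.1, 9.0 and 8.68 CPM in nKO 1 to 5. Every nKO library was above every control library, and control 3 was the lowest of all. Those values rest on 80 to 203 estimated counts per library, the fewest of the 10 genes. The means were 6.28 ± 1.87 and 10.3 ± 1.44 CPM (SD, n = 5 each), so that nKO stood at 163% of control, and the log2 fold change was 0.72 (SE 0.21, 95% limits 0.28 and 1.16). Without control 3 it was 0.55, and without control 1 and nKO 4 it was 0.86. In the authors' deposited table of a score for 22 genes, Wasf2 is the only member, and its score ran from -2.84 to -0.26 in controls and from 0.26 to 1.42 in nKO. That score is of the same libraries, so it is not independent of the CPM values.

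Wasf1 (WAVE1, the neuron-rich form; NCBI gene 83767, chromosome 10, 40883480 to 40938569) showed no such pattern. It read 83.8, 56.6, 72.7, 46.5 and 43.8 CPM in controls and 60.4, 37.7, 74.1, 74.2 and 47.7 CPM in nKO. Both genotypes spread over about the same range. The log2 fold change was -0.05 (SE 0.22, 95% limits -0.53 and 0.44, edgeR adjusted p = 0.985), the widest interval of the partners. Its biological coefficient of variation, the spread between animals beyond counting, was at the 89.1 percentile of tested genes. For Wasf2 that coefficient was at the 85 percentile. The sign of the estimate turned when control 1, control 3, nKO 2 or nKO 5 was left out.

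Wasf3 (WAVE3, also neuron-rich; NCBI gene 245880, chromosome 5, 146385006 to 146473615) read 39.7, 36.9, 29.7, 33.0 and 36.3 CPM in controls and 38.3, 42.5, 41.4, 40.9 and 37.1 CPM in nKO. Of the nKO libraries, 3 were above all controls, and the groups overlapped through nKO 1 and nKO 5. Its log2 fold change was 0.19 (SE 0.09, 95% limits -0.001 and 0.38, edgeR adjusted p = 0.82) and 0.13 without control 3, the library lowest in Wasf3.

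Of the TPM of the 3 WAVE genes together, Wasf1 gave 58.5 ± 7.61% for control and 53.1 ± 6.58% for nKO animals (SD, n = 5 each). Wasf3 gave 37.6 ± 6.58% and 40.9 ± 6.05% (SD, n = 5 each). Wasf2 gave 3.88 ± 1.32% for control and 6.02 ± 0.76% for nKO animals (SD, n = 5 each), with ranges of 1.97 to 5.54% and 4.91 to 6.95%. Wasf2 therefore remained the smallest share in all 10 libraries, and by this share the genotypes overlapped.

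**Figure D2:**
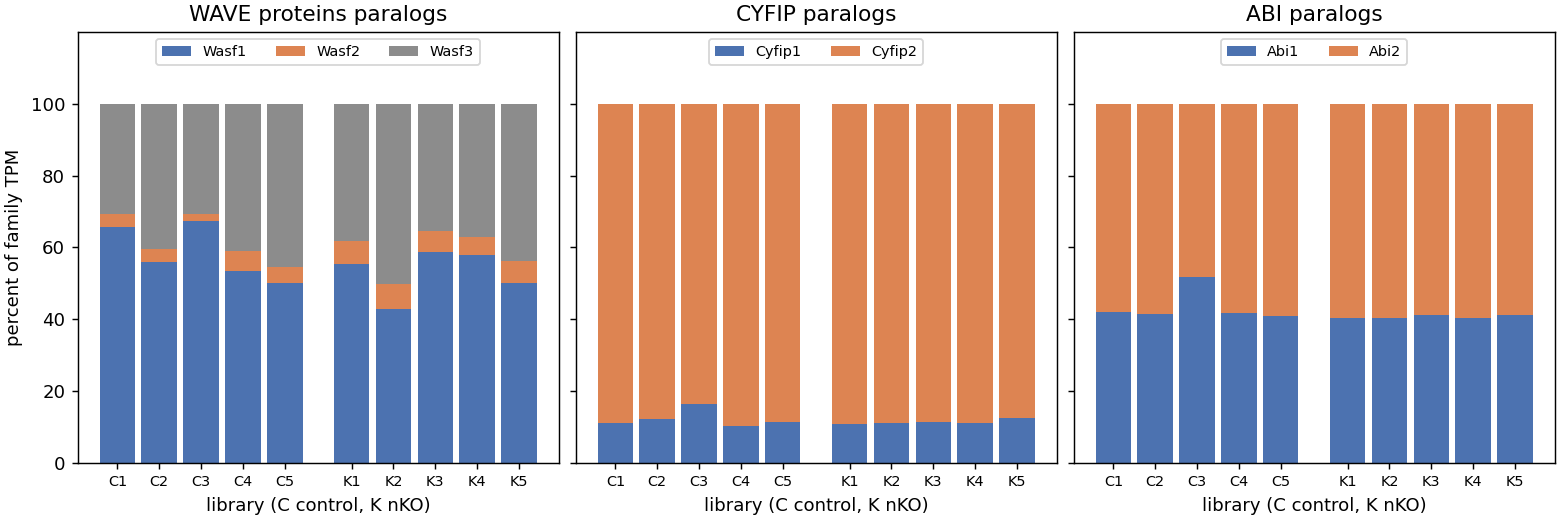
Share of each paralog in the summed TPM of its family (percent) in each library, C1 to C5 control and K1 to K5 nKO, for the WAVE proteins, the CYFIP subunits and the ABI subunits. Wasf2 is the thin band at 1.97 to 6.95%; Cyfip2 holds 83.7 to 89.6% of its pair, and Abi2 48.3 to 59.8%, with control 3 the library of the lowest Cyfip2 and Abi2 shares.

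Cyfip1 and Cyfip2 encode the interchangeable subunit that binds Rac and holds the WAVE protein shut. Cyfip1 is also known to bind the translation repressor FMRP. Cyfip1 (NCBI gene 20430, chromosome 7, 55842022 to 55932633) had the narrowest spread of the members, 103 to 117 CPM in controls and 104 to 116 CPM in nKO. Its coefficient of variation between animals was at the 1.9 percentile of tested genes. The log2 fold change was 0.02 (SE 0.06, 95% limits -0.12 and 0.16, edgeR adjusted p = 0.978).

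Cyfip2 (NCBI gene 76884, chromosome 11, 46193849 to 46312859) read 905, 739, 570, 866 and 815 CPM in controls and 901, 841, 855, 825 and 777 CPM in nKO. Control 3 was far below the rest, and the other control libraries covered the whole nKO range. Its log2 fold change was 0.11 (SE 0.11, 95% limits -0.12 and 0.34, edgeR adjusted p = 0.879), and 0.01 without control 3. Cyfip2 gave 87.7 ± 2.36% of the pair's TPM in controls and 88.7 ± 0.66% in nKO animals (SD, n = 5 each).

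Nckap1 (NAP1, the scaffold that pairs with the CYFIP subunit; NCBI gene 50884, chromosome 2, 80500512 to 80581182) read 779, 948, 932, 903 and 929 CPM in controls and 926, 895, 880, 1070 and 958 CPM in nKO. Control 1 was the lowest library and nKO 4 the highest. The log2 fold change was 0.07 (SE 0.08, 95% limits -0.09 and 0.24, edgeR adjusted p = 0.882), and -0.03 without those libraries. Nckap1 made up 98.8 ± 0.07% of the TPM it shares with Nckap1l, its blood-lineage paralog, in controls and 98.6 ± 0.07% in nKO animals (SD, n = 5 each). The share ranged from 98.7 to 98.86% in controls and from 98.5 to 98.68% in nKO, without overlap.

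Abi1 and Abi2 encode the adaptor that ties the WAVE protein to Nckap1 and is a substrate of Abl kinases. Abi2 (NCBI gene 329165, chromosome 1, 60405768 to 60481945) read 344, 436, 308, 445 and 439 CPM in controls and 445, 449, 429, 510 and 464 CPM in nKO. Control 1 and control 3 lay well below the other 8 libraries, which overlapped. The log2 fold change of 0.22 (SE 0.10, 95% limits -0.004 and 0.44, edgeR adjusted p = 0.82) was the largest of the partners, and it was 0.14 without control 3 and 0.13 without control 1 and nKO 4. Abi1 (NCBI gene 11308, chromosome 2, 22940073 to 23040241) ranged from 137 to 179 CPM in controls and from 152 to 182 CPM in nKO, with a log2 fold change of 0.04 (SE 0.08, 95% limits -0.14 and 0.21, edgeR adjusted p = 0.962). Abi2 gave 56.4 ± 4.57% of the pair's TPM in controls and 59.4 ± 0.53% in nKO animals (SD, n = 5 each).

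Brk1 (HSPC300, the smallest subunit, which packs with the WAVE and ABI proteins; NCBI gene 101314, chromosome 6, 113604772 to 113616951) ranged from 111 to 138 CPM in controls and from 103 to 120 CPM in nKO. Its log2 fold change was -0.09 (SE 0.08, 95% limits -0.26 and 0.09, edgeR adjusted p = 0.87), and -0.029 without control 3. Wasl (NCBI gene 73178, chromosome 6, 24613810 to 24664995) ranged from 94.3 to 120 CPM in controls and from 94.4 to 138 CPM in nKO, with a log2 fold change of 0.14 (SE 0.10, 95% limits -0.08 and 0.36, edgeR adjusted p = 0.849), and 0.077 without nKO 4.

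No member was called at a 5% false discovery rate by edgeR's quasi-likelihood test, where 0.0139% of all genes were called in either direction and 0.0% in the higher direction. At an unadjusted p under 0.05 the members held 1 gene, Wasf2, against 5.65% of all genes. The same gene was the 1 member whose CPM ranges did not overlap, against 1.38% of all genes in either direction. As Wasf2 prompted the list from this contrast, nothing is read from these counts. Estimates were above 0 for 7 of 9 partners, against 47.8% of all genes, with a median of 0.07 against -0.01 over all genes.

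The 95% interval of each of the 9 partners included 0, and the upper bounds were at most 0.44. The difference between Wasf2 and a partner was not tested, because the contrast of Wasf2 chose the list. These intervals give the uncertainty of each partner's mean difference between genotypes and do not show that its RNA was equal in both.

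**Figure D3:**
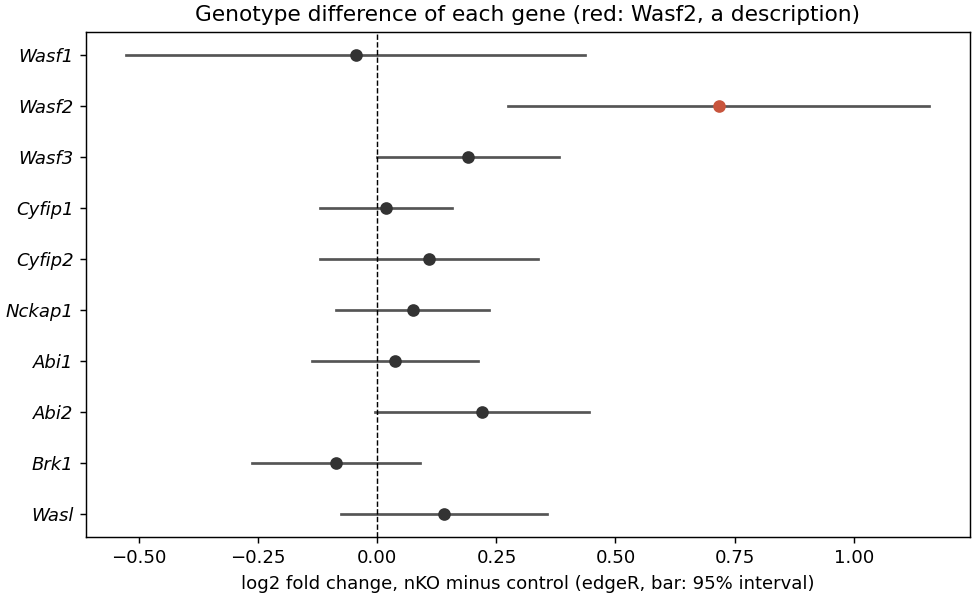
Log2 fold change (nKO minus control) of each gene from the edgeR fit, with 95% intervals as bars. Wasf2 lies at 0.72, every partner lies between -0.09 and 0.22, and all 9 partner intervals cross 0.

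Whether partners follow Wasf2 from animal to animal was examined apart from genotype, by subtracting the genotype mean from log2 CPM and correlating the 10 libraries. Cyfip2 did so. Its Pearson r with Wasf2 was 0.97 (two-sided permutation test over all 14400 rearrangements within genotype, p = 0.000625, Benjamini-Hochberg adjusted over 9 partners 0.00562), and its Spearman rho was 0.95 (adjusted permutation p = 0.00375). Relative to their genotype mean, control 1 and control 4 were high for both genes, control 3 was low for both, and nKO 5 was the lowest nKO library for both.

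The relation was weaker when the outermost libraries were left out. Without control 3, the farthest of them, r was 0.86 (permutation p = 0.00451, adjusted 0.0406). Without control 3 and control 1, the 2 libraries farthest from the median of Wasf2, r was 0.84 (permutation p = 0.0181, adjusted 0.162), so the call was lost with 8 libraries while the relation kept its direction. Leaving out each library in turn gave r from 0.86 to 0.99.

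Other genes had values as high. Of 9681 genes with a mean of at least 10 CPM, 10 genes (0.103%), Cyfip2 included, had an r with Wasf2 at or above that of Cyfip2, and 93 (0.961%) did without control 3. Those most like Wasf2 were Carm1 (r = 0.98), Bicral (0.98), Gm5859 (0.98), Pogz (0.98) and Rasgrf1 (0.97), with values of 0.91 to 0.96 without control 3. Summed excitatory neuron markers were also lowest in control 3 and highest in control 1, and their part in this relation was not tested.

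No other partner passed 5% in this test. Wasf3 had an r of 0.68 (adjusted permutation p = 0.209), which was 0.15 without control 3, and Abi2 had 0.43 (adjusted 0.483), which turned to -0.62 without control 3. Estimates for Abi1 (-0.69), Cyfip1 (-0.68), Nckap1 (-0.53), Brk1 (-0.48), Wasl (-0.33) and Wasf1 (-0.11) were below 0, with adjusted permutation p of 0.209 to 0.821. By rank, Nckap1 and Abi1 each had a rho of -0.73 with Wasf2 (adjusted permutation p = 0.0788 for both).

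**Figure D4:**
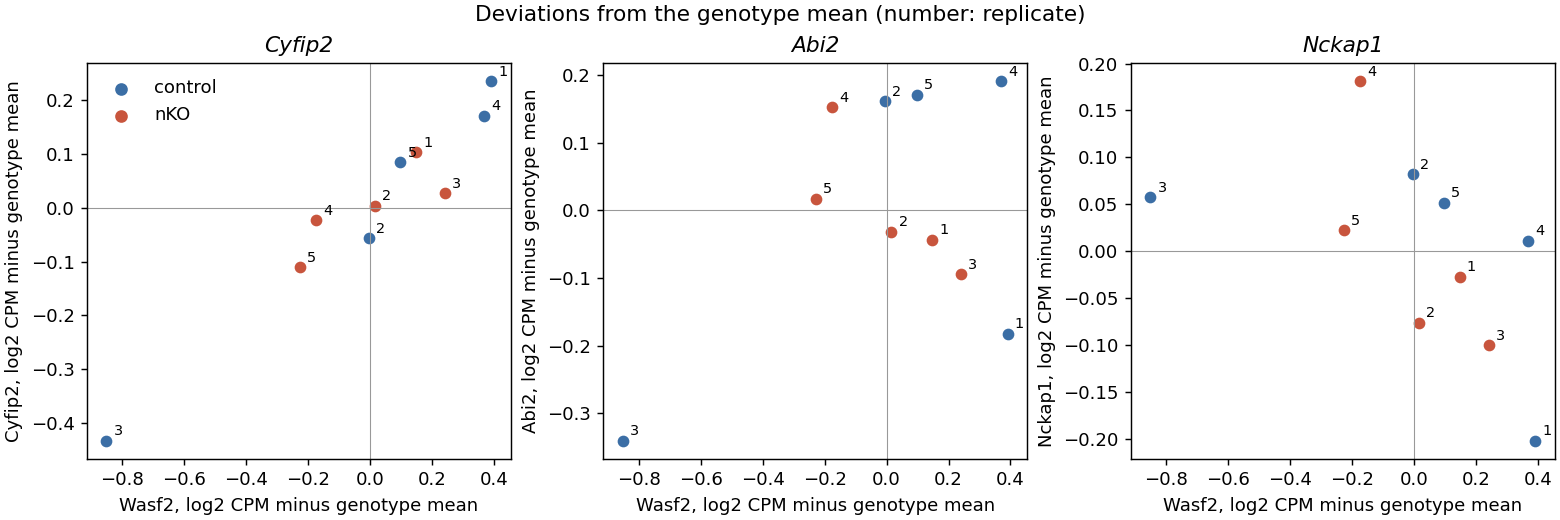
Deviation of log2 CPM from the genotype mean for Wasf2 (x axis) and for Cyfip2, Abi2 and Nckap1 (y axes); each point is 1 library, numbered by replicate. Cyfip2 lies along a rising line (r = 0.97), with control 3 at the lower left; for Abi2 the r of 0.43 turns to -0.62 without control 3; for Nckap1 r is -0.53.

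Among all 45 pairs of the 10 genes, of which only those with Wasf2 were planned, 1 more passed 5%. Wasf1 and Wasl had an r of 0.87 (permutation p = 0.00118, adjusted over 45 pairs 0.0266) and a rho of 0.89 (adjusted permutation p = 0.061). That r was 0.85 without nKO 2 and control 1, the libraries farthest from the median of Wasf1, and 0.81 to 0.91 with each library left out. For this pair, the share of all genes with an r as high is not given here. Nckap1 and Abi1, scaffold and adaptor of the same complex, had an r of 0.89 (permutation p = 0.00424, adjusted 0.0636), which was 0.58 without control 1 and nKO 4.

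Transcripts were examined next, 21 of the 27 having enough counts for the test. Wasf1, Wasf2, Wasf3 and Brk1 are listed with 1 transcript each. No member transcript was called, nor was any of 22343 transcripts (0.0%). At an unadjusted p under 0.05 the members held 2 transcripts, NM_153423 of Wasf2 and NM_001164662 of Cyfip1, against 3.60% of all transcripts. TPM ranges did not overlap for 1 member transcript, that of Wasf2, against 1.64% of all transcripts. NM_153423 holds all reads of Wasf2, whose contrast prompted the list, so nothing is read from these counts. No member gene with several tested transcripts was called for a different mix of them (edgeR's diffSpliceDGE, Simes adjusted p = 1 for each of Abi1, Abi2, Cyfip1, Cyfip2 and Nckap1), where 0.0211% of 4732 genes were.

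The minor Cyfip1 form with the 148-base exon 16 had the smallest p among the partners' transcripts, before adjustment. NM_001164662 read 3.71, 1.92, 3.22, 3.57 and 2.44 TPM in controls and 5.47, 4.89, 6.77, 6.11 and 3.50 TPM in nKO. Only nKO 5 fell within the control range. The log2 fold change was 0.80 (SE 0.24, 95% limits 0.26 and 1.33, edgeR adjusted p = 1). The form NM_011370, with the 154-base exon, stood at 40.7 ± 2.45 TPM for control and 40.0 ± 1.66 TPM for nKO animals (SD, n = 5 each; log2 fold change -0.07, SE 0.06, edgeR adjusted p = 1). Of all Cyfip1 TPM, NM_001164662 gave 6.83 ± 1.90% for control and 11.8 ± 2.73% for nKO animals (SD, n = 5 each), ranging from 4.38 to 8.77% and from 7.55 to 14.7%. The third form, NM_001164661, was listed at 0 in 9 libraries.

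Nckap1 was read mostly from the forms shown above. NM_001290745, with the 18-base exon, ranged from 287 to 399 TPM over the 10 libraries, and NM_016965, without it, from 134 to 194 TPM. Of these 2 forms together, the one with the exon gave 66.9 ± 3.80% for control and 67.8 ± 1.94% for nKO animals (SD, n = 5 each). Log2 fold changes were 0.09 (SE 0.09, edgeR adjusted p = 1) and 0.03 (SE 0.09; adjusted p = 1). The other pair of forms, NM_001355410 and NM_001355411, gave 3.35% and 4.07% of the gene in controls and 4.39% and 3.00% in nKO, and varied widely between animals of 1 genotype. Their exon make-up was not checked.

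Of the Abi1 forms, NM_145994 was listed at 0 in all 10 libraries, and NM_001077190 ran from 0 TPM in nKO 4 to 48.3 TPM in nKO 3. Most Abi1 TPM fell to NM_001331045 and NM_001331044, which gave 40.1 ± 8.85% and 34.5 ± 7.39% in controls and 41.1 ± 7.47% and 31.6 ± 9.50% in nKO animals (SD, n = 5 each). Abi2 was led by NM_001198571 with 56.8 ± 6.06% for control and 61.6 ± 5.46% for nKO animals (SD, n = 5 each). Cyfip2 was 96.9 ± 2.19% NM_133769 in controls and 97.8 ± 1.36% in nKO, and Wasl 98.8 ± 0.70% and 98.3 ± 1.35% NM_028459 (SD, n = 5 each). The files give no uncertainty for how reads were divided among forms, so spread between animals and error of that division cannot be told apart.

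**Figure D5:**
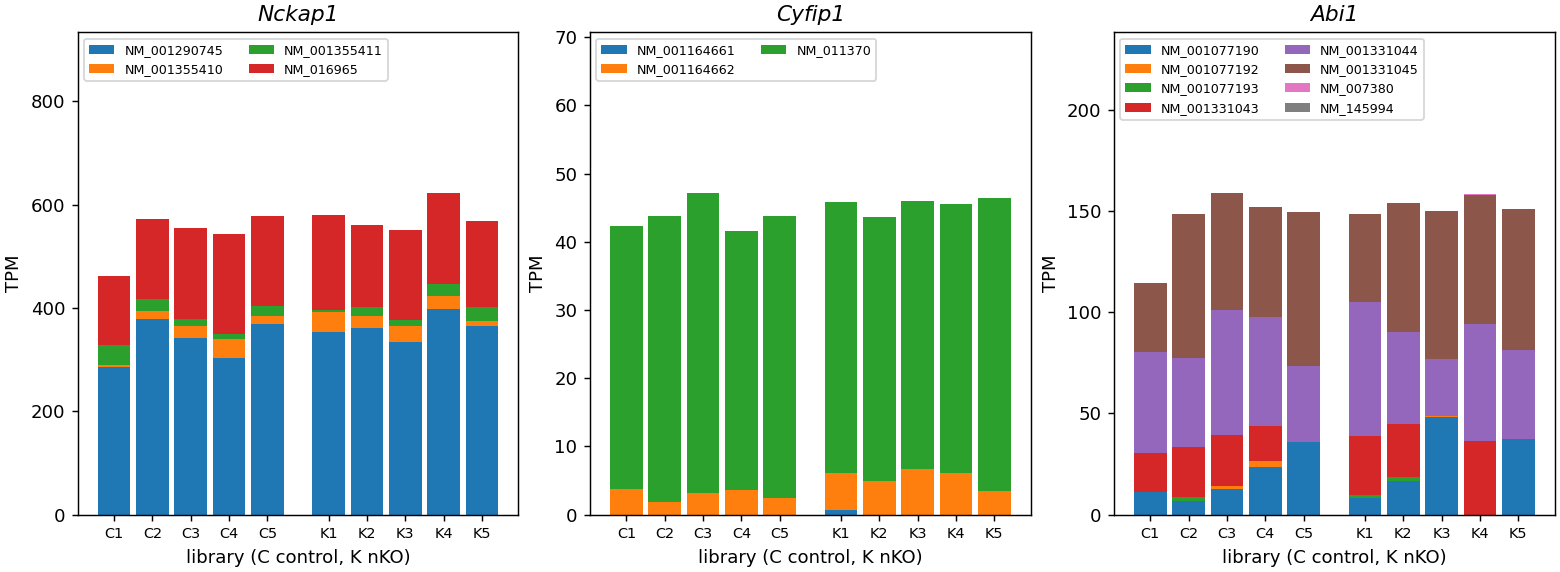
TPM of each RefSeq transcript of Nckap1, Cyfip1 and Abi1, stacked for each library (C1 to C5 control, K1 to K5 nKO). The Cyfip1 form NM_001164662 spans 1.92 to 3.71 TPM in controls and 3.50 to 6.77 TPM in nKO; NM_001077190 of Abi1 varies from 0 to 48.3 TPM among nKO libraries.

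Genes around and downstream of the complex were read from lists, with no gene called in any of them. Of 18 binders and regulators of the complex, 12 estimates of the log2 fold change were above 0, with a median of 0.09, and the smallest p was that of Srgap2, a membrane-bending Rac regulator (0.17, SE 0.07, edgeR adjusted p = 0.82).

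Of the 16 genes of the Arp2/3 complex and its brakes, the machinery that the WAVE proteins switch on, 4 estimates were above 0 and 12 below, with a median of -0.04. Actr2, which encodes the ARP2 subunit, stood at 304 ± 23.6 and 359 ± 47.1 CPM (SD, n = 5 each; log2 fold change 0.24, SE 0.09, edgeR adjusted p = 0.82), and its libraries overlapped. Actr3b, an ARP3 form, had an estimate of -0.17 (SE 0.08, edgeR adjusted p = 0.82). Of 13 genes for actin and filament turnover, 7 estimates were above 0, with a median of 0.02, and Ssh2, a phosphatase that activates cofilin, had the smallest p (0.20, SE 0.07, edgeR adjusted p = 0.82).

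Of 12 N-WASP partners, 7 estimates were above 0, with a median of 0.05, from -0.38 for Trip10 to 0.36 for Wipf2, which binds N-WASP (SE 0.17 for both, edgeR adjusted p = 0.82 for both). Of 8 genes of the WASH complex and other nucleation promoters, 3 estimates were above 0, with a median of -0.05. Of the 5 blood-lineage paralogs, Nckap1l had the smallest p (log2 fold change 0.29, SE 0.09, edgeR adjusted p = 0.82). It read 12.9 ± 0.66 CPM for control and 15.7 ± 1.27 CPM for nKO animals (SD, n = 5 each), without overlap. Of all genes, 1.38% had no overlap in either direction. The others named were Abi3 (-0.44, SE 0.28) and Was (0.14, SE 0.23). Summed microglia markers, of a cell type known for Nckap1l, were 194 to 221 CPM in controls and 198 to 222 CPM in nKO, and their part in the Nckap1l values was not tested. In each list the estimates stood beside a median of -0.01 over all genes.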

How the data were processed

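Total RNA was extracted with TRIZOL and made into stranded, ribosome-depleted libraries, per the labels' protocols. Salmon, bcl2fastq, DESeq2 and the build mm10 are named in the submitters' processing notes, without roles or versions, and the annotation was not given in the sources used here. Per the file headers, the authors deposited estimated counts, TPM and effective lengths (in bases) per gene and per transcript, and Salmon divides reads shared by similar sequences. The authors also deposited a score for 22 genes whose scale is not stated.

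Estimated counts were rounded, filtered (filterByExpr, minimum count 10, minimum total 15), scaled by TMM and tested by quasi-likelihood F test (edgeR 4.0.16, R 4.3.3), adjusted by Benjamini-Hochberg over all 14378 genes or 22343 transcripts at 5%. Log2 CPM for correlations used a prior count of 2. The edgeR gene and transcript tests were also run on simulated counts, and the outcome is not given here. Named genes were the 10 members, Atad3a, up to 3 genes of each list with the smallest p, and the 5 most like Wasf2. The result of 1 list is not reported here. The members and lists were chosen with earlier results of these data known. Alternatives were DESeq2 1.42.0, limma 3.58.1 (voom), other scalings and filters, and libraries left out. The labels give no batch or pairing, and every control has a lower running number than every nKO library, so any order of handling and genotype cannot be told apart.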

Additional observations from a re-analysis of the deposited data

Results flagged for a closer look

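Nckap1 in control 1 stood apart from its group: it read 778.8 CPM, while the other 4 control libraries lay between 903 and 948 CPM, and the gap to the nearest was 0.731 of the group's range. Of 20 groups of 5 libraries tested this way, chance flags about 1 in 20. Control 1 was also the lowest control library for Abi1, at 137 CPM.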

How the results depend on the processing

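No member gene was called under any of 17 alternatives, and no member transcript under any of 12. Of all genes, 2 were called and 5 with the DESeq2 Wald test, and 2 to 3 with each library left out. The log2 fold change of Wasf2 ran from 0.55 (without control 3) to 0.86 (without control 1 and nKO 4). Over all members, estimates turned sign in 9 cases and kept it in 161. The turns fell to Wasf1, Abi1, Nckap1 and Cyfip1, whose estimates were near 0. With each library left out, Wasf1 ran from -0.15 to 0.098, above 0 without control 1, control 3, nKO 2 or nKO 5. Abi1 ran from -0.017 (without control 1) to 0.076, also below 0 without nKO 4, and was -0.061 without control 1 and nKO 4. Nckap1 was -0.031 without control 1 and nKO 4. Cyfip1 ran from -0.002 (without control 4) to 0.046. The Nckap1 transcript NM_016965 ran from -0.043 to 0.083, below 0 without control 1 or control 2.

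Correlations with Wasf2 depended on the libraries kept and on the scaling. Without the 2 libraries farthest from the median of Wasf2, r was 0.11 for Wasf1, -0.10 for Wasf3, -0.59 for Abi2, 0.54 for Brk1 and 0.84 for Cyfip2 (adjusted permutation p = 0.162). With each library left out in turn, r ran from -0.38 to 0.32 for Wasf1, from -0.62 to 0.69 for Abi2 and from -0.63 to 0.39 for Brk1. It stayed above 0 for Cyfip2 (0.86 to 0.99) and Wasf3 (0.15 to 0.87). It stayed below 0 for Wasl (-0.49 to -0.06), Cyfip1 (-0.82 to -0.31), Nckap1 (-0.75 to -0.38) and Abi1 (-0.79 to -0.63). On log2 TPM in place of log2 CPM, r was nearer 0 for Abi1 (-0.29), Nckap1 (-0.10) and Wasf3 (0.35). It was farther from 0 for Abi2 (0.68) and Cyfip1 (-0.80). Cyfip2 then had an r of 0.96 (adjusted permutation p = 0.0231). The cause of these shifts was not tested. Paralog shares from CPM per effective length test little, since TPM is built the same way, and they moved by less than the spread between animals. The transcript usage test was run once, with no alternative. No paired analysis was possible because the labels give no pairing. Leaving out each library in turn for the correlations, and control 1 with nKO 4, was chosen after seeing the data. Wasf2, with 80 to 203 counts per library, is the member with the fewest counts. Its lowest CPM was in control 3, the deepest library.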
